A study of Homo sapiens and Homo sapiens
Mus musculus with 19 samples.

Results

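The genes described here are 54 genes of the long arm of chromosome 16 (16q), listed because RNA from this arm was, as a whole, higher in Control than in sgTWIST1 cells of the neuroblastoma line SK-N-Be2c. They were found by their symbols among the 57820 genes of the human count table. All 54 lie on 16q, between chr16:56225302 and chr16:70611573 in GRCh37, the build (hg19) of the deposited counts. Of these, 52 passed the expression filter and were tested with 10889 protein-coding genes in all. TRADD, an adaptor of TNF receptor signalling, and ELMO3, an engulfment adaptor, did not pass and carry no fold change. Of the 52, 45 passed in every group. SMPD3, PRMT7, WWP2 and BBS2 passed through Control samples alone and MT1X through a sgTWIST1 sample alone. PLA2G15 passed through Control cells and sgTWIST1 tumors alone, and MT2A through every group but Control tumors. Differences between groups of these members are not independent of the filter. Because the difference between Control and sgTWIST1 chose the list, that difference is given below as a description, in cells and in tumors. Where members past the threshold of the fit over all genes are counted for it, the count stands beside the share of all genes and is no test of the list.

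SK-N-Be2c is an established, MYCN-amplified (MNA) line, and sgTWIST1 cells carry a CRISPR/Cas9 knockout of TWIST1, a basic helix-loop-helix transcription factor. RNA was sequenced from 3 Control and 3 sgTWIST1 cultures, which the labels call clones of wild-type and TWIST1-KO genotype, and from 4 Control and 4 sgTWIST1 orthotopic (ortho_1) tumors grown from these cells in the left adrenal gland of athymic Swiss nude mice until they reached 1000 mm3. All groups therefore share 1 parental line, and the study's methods call the cultures biological replicates, so p-values measure the spread between these samples only. RNA of cells and of tumors entered library preparation in different amounts. The methods count the lanes of cells and of tumors apart, without saying whether a lane was shared. The labels, unlike the methods of the study, also name different extraction kits. Growth in the mouse and these steps cannot be told apart.

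Neuroblastoma cells often gain or lose whole chromosome arms, and the RNA of many genes tends to follow the number of copies of their arm. A transcription factor, by contrast, usually acts on genes scattered over all chromosomes. DNA copies were not measured in the files used here, and their part in the results was not tested.

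Human counts per sample, after summing batches, ranged from 21426499 to 49990985, and the members held between 0.223% and 0.532% of them. TWIST1 RNA remained detectable in the knockout, at 22.8 to 33.8 CPM (counts scaled to a common library size) in sgTWIST1 cells against 62.0 to 73.5 in Control cells, and at 24.9 to 48.6 in sgTWIST1 tumors against 85.0 to 104.0 in Control tumors. Of 10 neuroblastoma markers, 9 were above 6.68 CPM in every sample, with MYCN at 1535 CPM or more, while TH fell to 0.239 CPM in 1 sample. Murine counts made up 2.44% to 14.0% of a tumor's counts, and the summed murine fibroblast markers spanned 0.0132% to 0.582% of counts in Control and 0.0273% to 0.469% in sgTWIST1 tumors. Reads that match both organisms stayed in the human counts, and their part in the tumor values was not tested. In bulk samples, fewer cells of a type and less RNA per cell cannot be told apart.

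Promoter sequences are shown for the 2 metallothioneins, the lowest members of the list, and for 2 of the members furthest in its direction. They come from RefSeq (GRCh38.p14, a later build than that of the counts) and span 250 bases before to 50 bases after each start. Capitals mark TGCACNC or TGCGCNC on either strand, the core of the metal response element, in MT2A and MT1X, and CANNTG, the E-box that factors of the TWIST1 family bind, in DOK4 and NDRG4.
MT2A promoter, chr16:56608334-56608633, plus strand: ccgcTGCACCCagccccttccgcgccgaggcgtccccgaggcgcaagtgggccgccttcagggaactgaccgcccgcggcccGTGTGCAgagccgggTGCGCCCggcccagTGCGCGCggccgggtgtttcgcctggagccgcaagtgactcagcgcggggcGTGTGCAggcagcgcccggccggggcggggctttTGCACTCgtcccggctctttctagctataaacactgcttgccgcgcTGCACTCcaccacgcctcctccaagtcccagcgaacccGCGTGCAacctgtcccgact
MT1X promoter, chr16:56682220-56682519, plus strand: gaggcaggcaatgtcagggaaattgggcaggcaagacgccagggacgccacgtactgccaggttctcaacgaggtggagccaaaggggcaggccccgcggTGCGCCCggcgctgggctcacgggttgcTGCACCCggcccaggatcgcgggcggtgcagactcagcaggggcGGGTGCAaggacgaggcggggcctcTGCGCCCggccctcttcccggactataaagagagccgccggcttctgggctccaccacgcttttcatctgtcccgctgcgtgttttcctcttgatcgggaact
DOK4 promoter, chr16:57487273-57487572, minus strand: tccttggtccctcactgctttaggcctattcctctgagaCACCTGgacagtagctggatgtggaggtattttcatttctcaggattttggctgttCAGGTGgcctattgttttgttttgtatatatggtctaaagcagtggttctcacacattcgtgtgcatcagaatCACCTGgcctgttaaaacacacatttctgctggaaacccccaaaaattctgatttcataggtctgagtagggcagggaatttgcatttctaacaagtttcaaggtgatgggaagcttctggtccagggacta
NDRG4 promoter, chr16:58499893-58500192, plus strand: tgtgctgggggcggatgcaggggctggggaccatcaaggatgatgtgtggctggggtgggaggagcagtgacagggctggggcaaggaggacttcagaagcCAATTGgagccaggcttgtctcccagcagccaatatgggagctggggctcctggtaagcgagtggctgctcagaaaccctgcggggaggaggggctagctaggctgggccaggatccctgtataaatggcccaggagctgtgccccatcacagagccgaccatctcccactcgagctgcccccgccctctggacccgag
Of the 54 members, 46 had a promoter in the table. An E-box stood in 60.9% of the members' promoters and in 68.7% of all 35116 promoters. The metal response core stood in 39.1% of the members' promoters and in 29.6% of all, with 8 matches in MT2A and 4 in MT1X. Median GC content was 68.0% for the members and 58.7% for all promoters. A match describes the letters only.

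Most members were higher in Control than in sgTWIST1 samples by a similar, moderate amount. In the following, log2(FC) is Control against sgTWIST1 unless said otherwise, so that a positive value means higher in Control. The median log2(FC) of the 52 tested members was 0.67 in cells, a 1.60-fold difference, and 0.58 in tumors, a 1.49-fold difference, while the median over all genes tested was 0.00 in both. In cells, 35 members passed an adjusted p of 0.05 as higher in Control and 3 as lower, where 19.8% and 17.1% of all genes did. In tumors the counts were 38 and 3, where 24.0% and 23.0% of all genes did. With an added minimum log2(FC) of 1, the shares of all genes higher in Control fell to 8.28% in cells and 6.81% in tumors, and the difference of most members lay under that size. The Control samples lay entirely above the sgTWIST1 samples for 37 members in cells, where 27.1% of all genes did so, and for 31 members in tumors, where 21.8% did. Since these contrasts chose the list, nothing is read from these shares.

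The direction was the same from sample to sample, and the size varied. Each sample's deviation from the mean of the 4 groups, as the median over members in log2 CPM, was 0.42 ± 0.11 (SD, n = 3) in Control cells and -0.19 ± 0.05 (n = 3) in sgTWIST1 cells. It was 0.15 ± 0.12 (n = 4) in Control tumors and -0.37 ± 0.08 (n = 4) in sgTWIST1 tumors. No Control sample overlapped a sgTWIST1 sample of its kind: Control tumors ranged from 0.05 to 0.31 and sgTWIST1 tumors from -0.46 to -0.27. The Control cultures differed from the sgTWIST1 cultures by a median of 0.62 in batch 1 (3 Control and 3 sgTWIST1) and 0.63 in batch 2 (3 and 2). The labels do not say what the batches are. Batch 2 holds clones that are also in batch 1, so it is no further set of cultures.

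**Figure D1:**
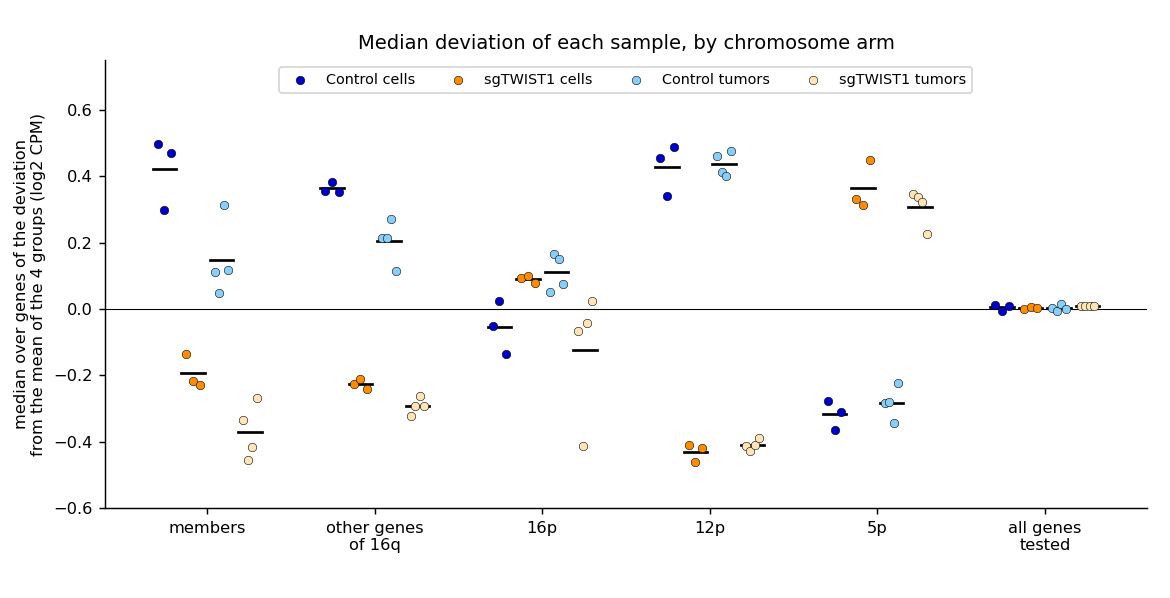
Each point is one sample: the median over genes (y axis, log2 CPM) of the deviation from the mean of the 4 groups, for the members, the other genes of 16q, 3 other chromosome arms and all genes tested, with a bar at each group mean. Members and other 16q genes separate Control from sgTWIST1 in cells and in tumors, and all genes tested lie at 0.

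Signalling, neuronal and other genes had the highest median of the role groups in cells, at a log2(FC) of 0.90, and a median of 0.60 in tumors. DOK4, a docking protein downstream of receptor tyrosine kinases, was the most abundant member of this group per length, at 231.5 RPKM (CPM per kilobase of exon) in Control cells. It stood at 1321, 1083 and 919 CPM in Control cells and at 351, 375 and 184 in sgTWIST1 cells, a log2(FC) of 1.87 ± 0.29 (SE). In tumors it stood at 366, 392, 466 and 422 CPM in Control and at 163, 136, 119 and 157 in sgTWIST1, a log2(FC) of 1.53 ± 0.13. The groups did not overlap in either setting. NDRG4, a cytoplasmic protein of the N-myc downstream regulated family expressed in brain and heart, was at 129, 167 and 144 CPM in Control cells and 42.5, 45.0 and 41.0 in sgTWIST1 cells. Its Control tumors ranged from 105.8 to 118.9 CPM and its sgTWIST1 tumors from 43.4 to 59.5. The groups were apart in both settings, and its log2(FC) was 1.77 ± 0.13 in cells and 1.13 ± 0.11 in tumors. Next came the MARVEL-domain membrane proteins CMTM4, with a log2(FC) of 1.65 in cells and 1.21 in tumors, and CMTM3, with 1.24 and 0.60. RANBP10, a Ran-binding scaffold, was at 0.80 and 0.84. The calcium-dependent phospholipid-binding protein CPNE2 was at 0.84 and 0.33, and RSPRY1, a RING and SPRY domain protein, at 0.90 and 0.20. The lowest of the group were GNAO1, the G protein alpha subunit of neurons, at 0.42 and 0.09, and the polarity protein PARD6A at 0.14 and 0.05. The untested ELMO3 was at 3.34 ± 0.24 CPM in Control cells and 1.20 ± 0.41 in sgTWIST1 cells (SD, n = 3), without overlap, and TRADD was at 3.17 ± 1.44 and 3.18 ± 0.11, with overlap. In tumors (n = 4) ELMO3 was at 2.24 ± 1.02 CPM in Control and 1.07 ± 0.74 in sgTWIST1. TRADD was at 1.37 ± 0.78 in Control tumors and 2.40 ± 0.48 in sgTWIST1 tumors, and the tumor groups of both genes overlapped.

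Metabolic, redox and metal-binding genes spread most widely, from -2.14 to 1.74 in cells. SMPD3, the neutral sphingomyelinase that makes ceramide at membranes, had the highest mean log2(FC) of the list. It was at 15.7, 30.2 and 17.4 CPM in Control cells and at 6.13, 7.38 and 5.42 in sgTWIST1 cells. In tumors it was at 64.7, 71.5, 71.0 and 58.7 CPM in Control and at 5.84, 8.69, 10.5 and 8.47 in sgTWIST1. The groups were apart in both settings, by a log2(FC) of 1.74 ± 0.29 in cells and 3.02 ± 0.17 in tumors. The mitochondrial aspartate aminotransferase GOT2 had the highest level of this group per length. It was at 257, 239 and 256 CPM in Control cells and at 161, 154 and 146 in sgTWIST1 cells, while Control tumors (125.2 to 164.4) overlapped sgTWIST1 tumors (92.8 to 130.4). Its log2(FC) was 0.71 ± 0.10 in cells and 0.41 ± 0.13 in tumors. The iron-sulfur assembly factor CIAPIN1 was at 0.79 and 0.60, and its neighbour COQ9, of coenzyme Q synthesis, at 0.79 and 0.58. The lysosomal phospholipase PLA2G15 was at 1.05 in cells and -0.25 in tumors, and PDPR, which regulates pyruvate dehydrogenase phosphatase, at 0.51 and -0.15. The amino acid transporter SLC7A6 was at 0.27 and 0.28, and the V-ATPase subunit ATP6V0D1 at -0.27 and 0.05. The quinone reductase NQO1, an NRF2 target, was at 26.3, 12.9 and 26.9 CPM in Control cells and 29.6, 26.2 and 38.7 in sgTWIST1 cells, with overlap, and its log2(FC) was -0.51 ± 0.30 in cells and 0.20 ± 0.23 in tumors.

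The metallothioneins MT2A and MT1X, small proteins that bind zinc and copper, ran the other way. MT2A was at 2.45, 1.53 and 2.02 CPM in Control cells and at 6.79, 6.06 and 4.71 in sgTWIST1 cells. In tumors it was at 1.25, 2.04, 1.19 and 1.04 CPM in Control and at 3.12, 4.53, 3.43 and 9.16 in sgTWIST1. The groups did not overlap, at a log2(FC) of -1.55 ± 0.29 in cells and -1.87 ± 0.43 in tumors. MT1X was at 0.578, 0.605 and 0.439 CPM in Control cells and at 3.42, 2.31 and 1.41 in sgTWIST1 cells. Its Control tumors ranged from 0.565 to 1.40 CPM and its sgTWIST1 tumors from 1.48 to 7.35. These groups did not overlap either, at a log2(FC) of -2.14 ± 0.44 and -1.74 ± 0.59, and the highest value of both genes was in sgTWIST1 tumor 4. Without sgTWIST1 tumor 4 the log2(FC) of MT1X in tumors was -0.93 and no longer past the threshold. MT1X passed the filter through 1 library, this tumor, so its direction is not independent of the filter. The values are small: MT1X rested on 10 to 203 counts a sample and MT2A on 33 to 256. Of the 12 metallothionein genes of 16q only these 2 passed the filter, and the other 10 had at most 18 counts in any sample. Metallothionein transcripts resemble each other, so counts may be split between them. No 100-base window of an annotated MT2A or MT1X transcript recurred in a gene elsewhere in the genome, and 11.6% of the MT1X windows were shared with a gene that overlaps it.

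**Figure D2:**
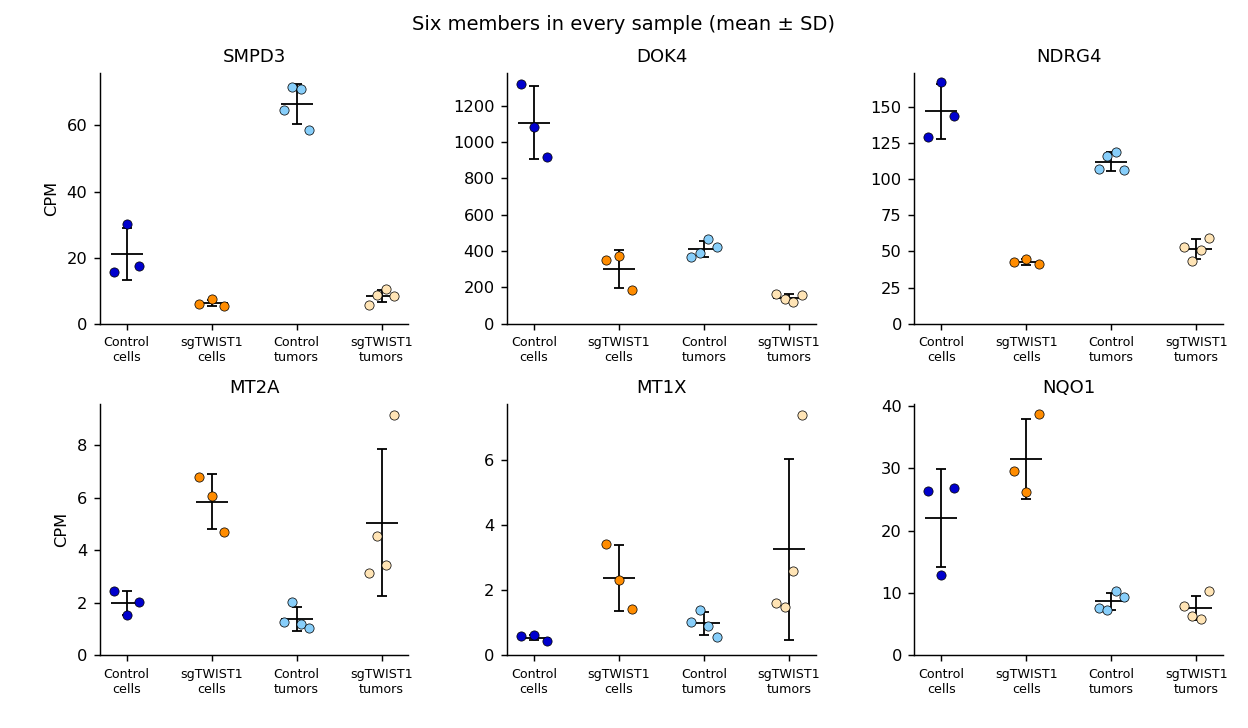
CPM of 6 members in every sample (points), with the mean and SD of each group; y axes start at 0. SMPD3, DOK4 and NDRG4 are higher in Control without overlap, MT2A and MT1X are lower in Control without overlap, and NQO1 is lower in tumors than in cells.

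Of the 11 genes of transcription and chromatin, 7 in cells and 9 in tumors passed the threshold as higher in Control, beside the 19.8% and 24.0% of all genes, with medians of 0.48 and 0.65. E2F4, a repressive E2F factor of quiescent cells, was at 0.94 in cells and 1.05 in tumors. POLR2C, a core subunit of RNA polymerase II, was at 0.77 and 0.85, the arginine methyltransferase PRMT7 at 0.81 and 0.65, and NFATC3, a calcineurin-dependent factor, at 0.70 and 0.75. The insulator protein CTCF was at 0.31 and 0.77, the shelterin subunit ACD at 0.49 and 0.92, the lysine methyltransferase SETD6 at 0.33 and 0.61, and CHTF8, of the clamp loader for sister chromatid cohesion, at 0.43 and 0.45. THAP11, a zinc finger factor, had the highest level of the group per length. It was at 71.4, 49.9 and 53.7 CPM in Control cells and at 53.7, 43.8 and 44.8 in sgTWIST1 cells, and in tumors at 31.0 to 56.7 in Control and 28.6 to 47.6 in sgTWIST1. The groups overlapped in tumors and in cells, where the lowest Control culture lay below the highest sgTWIST1 culture, and the log2(FC) was 0.30 and 0.26. CBFB, the partner subunit of RUNX factors, was at -0.09 and 0.26, and NFAT5, the osmotic stress factor, at 0.48 and -0.13.

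All 6 genes of RNA processing and decay passed the threshold as higher in Control in cells and in tumors, where 19.8% and 24.0% of all genes did, with log2(FC) between 0.48 and 0.93 in cells and between 0.39 and 0.88 in tumors. NUDT21, the subunit of cleavage factor I that selects polyadenylation sites, was the most abundant of them per length. It was at 388, 283 and 311 CPM in Control cells and at 235, 238 and 231 in sgTWIST1 cells. Its Control tumors ranged from 366.3 to 428.9 CPM and its sgTWIST1 tumors from 231.1 to 288.5, without overlap, and its log2(FC) was 0.48 in cells and 0.61 in tumors. CNOT1, the scaffold of the CCR4-NOT deadenylase, was at 0.93 and 0.70, the spliceosome subunit SF3B3 at 0.75 and 0.88, the decapping scaffold EDC4 at 0.53 and 0.74, the ribosome biogenesis factor NIP7 at 0.60 and 0.57, and the ribosomal protein hydroxylase OGFOD1 at 0.48 and 0.39.

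Of the 6 genes of protein folding, modification and turnover, 4 in cells and 5 in tumors passed as higher in Control, again beside 19.8% and 24.0% of all genes. HERPUD1, a stress-induced factor of degradation at the endoplasmic reticulum, was at 1.22 and 0.76, TMEM208 at 1.01 and 0.91, the casein kinase 2 subunit CSNK2A2 at 1.02 and 0.40, and the ubiquitin ligase WWP2 at 0.71 and 0.72. NAE1, a subunit of the NEDD8-activating enzyme, was the most abundant per length, at 147, 99.6 and 147 CPM in Control cells and 96.0, 97.9 and 90.6 in sgTWIST1 cells. Its Control tumors (102.1 to 107.3 CPM) lay above its sgTWIST1 tumors (71.1 to 87.4), no groups overlapped, and its log2(FC) was 0.47 in both. The immunoproteasome subunit PSMB10 was at -0.12 and -0.17, with overlap.

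Among genes of membrane traffic, cytoskeleton and cilia, DYNC1LI2, a light intermediate chain of dynein, was at 0.91 and 0.89, VPS4A, the ATPase of ESCRT-III, at 0.78 and 0.68, and the Golgi tether COG4 at 0.68 in cells and 0.69 in tumors. The Ran transporter NUTF2 was at 0.67 and 0.63, the nuclear pore protein NUP93 at 0.57 and 0.43, BBS2 of the ciliary BBSome at 0.81 and 0.40, and the syntrophin SNTB2 at 0.20 and 0.05. ARL2BP, which binds the small GTPase ARL2, was the most abundant per length. It was at 67.4, 63.6 and 54.6 CPM in Control cells and 55.4, 57.5 and 50.9 in sgTWIST1 cells, and at 33.3 to 40.7 in Control tumors and 25.9 to 31.5 in sgTWIST1 tumors. Its groups overlapped in cells and were apart in tumors, at a log2(FC) of 0.18 and 0.39. FHOD1, a formin that assembles actin, was the third gene lower in Control. It was at 31.9, 38.4 and 51.1 CPM in Control cells against 82.2, 59.5 and 60.9 in sgTWIST1 cells, and at 16.1, 20.9, 16.7 and 16.9 in Control tumors against 22.7, 27.5, 24.9 and 35.6 in sgTWIST1 tumors. Its groups were apart, at a log2(FC) of -0.74 ± 0.21 and -0.63 ± 0.17.

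**Figure D3:**
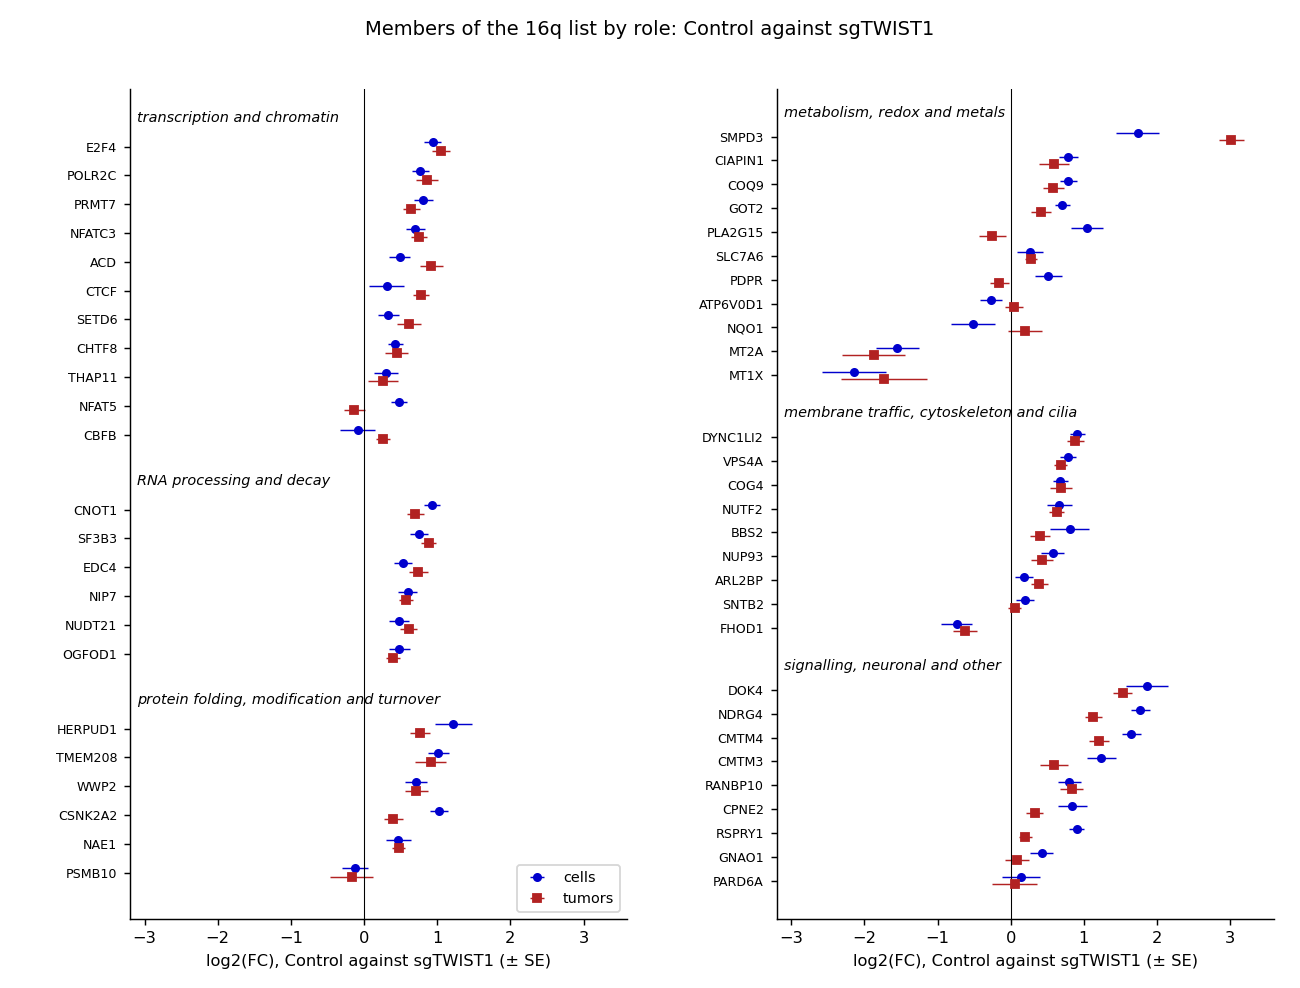
log2(FC) of Control against sgTWIST1 (x axis; bars, SE) of the 52 tested members in cells (circles) and tumors (squares), by role. Most values lie above 0; MT2A, MT1X and FHOD1 lie below 0 and SMPD3 reaches 3.02 in tumors. The list was chosen on these contrasts.

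Genes of 16q that are not on the list differed by a similar amount. The 56 other tested genes between the first and the last member had a median log2(FC) of 0.64 in cells and 0.60 in tumors. The 32 genes between the centromere and the first member were at 0.67 and 0.43, and the 87 beyond the last member at 0.67 and 0.61. Of the 175 tested genes outside the list, 80.6% were positive in both cells and tumors, against 80.8% of the members and 35.6% of all genes. In consecutive stretches of 25 tested genes from the centromere to the telomere, the median stayed between 0.56 and 0.71 in cells and between 0.40 and 0.70 in tumors. The first and the last member marked no step in these medians. SLC6A2, the noradrenaline transporter, LPCAT2 and MMP2 were the last tested genes before it, at 2.03, -0.01 and 1.19 in cells and 1.69, 0.60 and 1.16 in tumors. MTSS1L, VAC14 and CMTR2 followed it, at 0.61, 0.55 and 0.78 in cells and 0.68, 0.55 and 0.98 in tumors. Within the stretch, 5 genes that are not members were negative in both settings: NLRC5, an activator of MHC class I genes, at -2.62 and -2.26, the endothelial cadherin CDH5 at -0.83 and -1.35, CES3 at -0.96 and -2.43, NOL3 at -0.21 and -0.44, and CKLF at 0.00 in cells and -0.01 in tumors. NLRC5 passed the threshold as lower in Control in both settings, CDH5 and CES3 in tumors alone, and NOL3 and CKLF in neither. The mesenchymal cadherin CDH11, 1 of 2 tested among the 8 cadherin genes of the arm, was at 5.00 and 2.99. Single libraries moved some of these values by over 1.5-fold: CDH11 in tumors was at 4.26 without sgTWIST1 tumor 2, NLRC5 in tumors at -2.91 without Control tumor 2, and CES3 in cells at -1.83 without Control culture 2. Genes of 16q that do not code for protein, fitted with all gene types, had a median of 0.94 in cells (29 genes) and 0.66 in tumors (30 genes), where such genes over the whole genome were at 0.22 and 0.00.

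**Figure D4:**
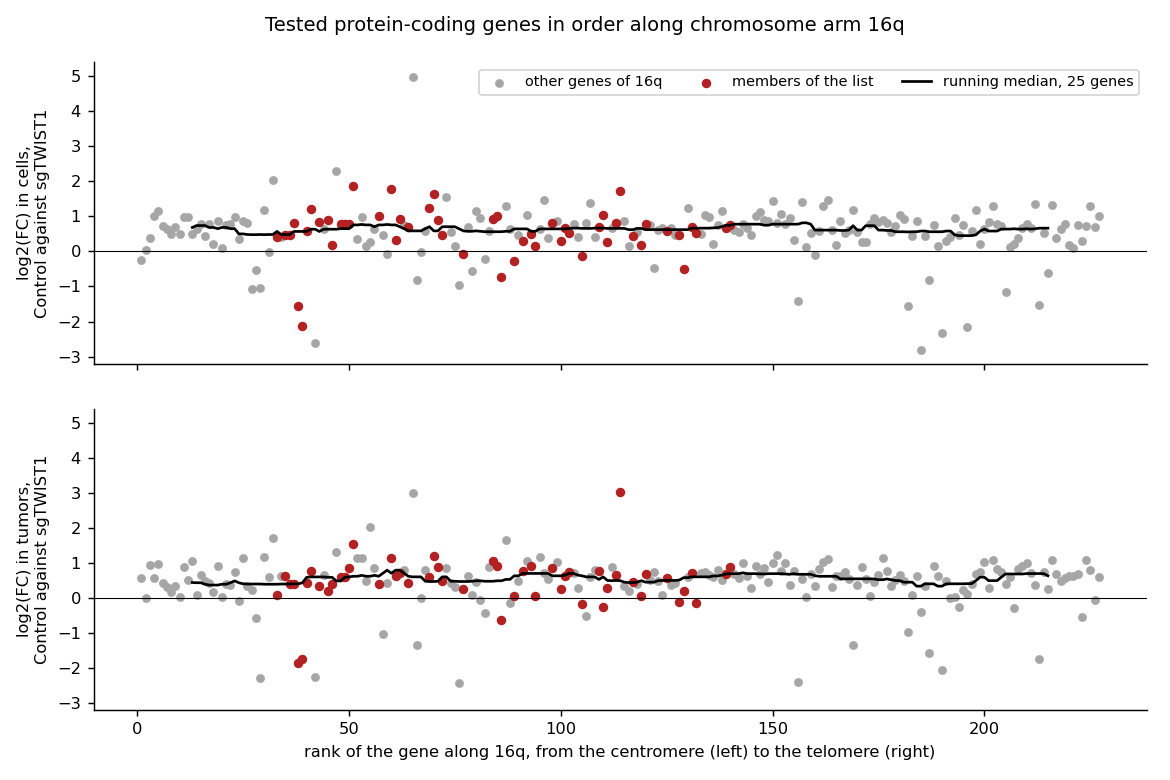
log2(FC) of Control against sgTWIST1 (y axis) of the 227 tested genes of 16q in cells (top) and tumors (bottom), by rank from the centromere, with members in red and the running median of 25 genes as a line. The line stays above 0 along the whole arm; CDH11 is the gene near 5 in cells.

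Other arms gave other values. Of 41 arms with at least 20 tested genes, 16q had the third-highest median in cells and in tumors, behind 12p (0.86 and 0.88) and 9p (0.66 and 0.67), and 5p had the lowest (-0.66 and -0.58). The short arm of the same chromosome gave other values: its 296 genes had a median of -0.13 in cells and 0.27 in tumors. Among the sgTWIST1 tumors, 1 library lay lowest on 16p, and no median without it is given here. The median deviation of 16p was -0.41 in sgTWIST1 tumor 2 and between -0.07 and 0.02 in the other 3 sgTWIST1 tumors. Control tumors were at 0.05 to 0.16, above all sgTWIST1 tumors. The members in sgTWIST1 tumor 2 were at -0.46, near the -0.42 of sgTWIST1 tumor 3.

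Growth as tumors was not the contrast that chose the list, but the same samples entered that choice. The counts and medians of members below are therefore not independent of it. The fit used edgeR's quasi-likelihood method with adjustment over all genes. More members were lower in tumors than higher. In Control, 19 members were lower in tumors than in cells and 3 were higher, and the median was -0.30, where 19.4% of all genes were lower, 18.3% were higher and the median was -0.01. In sgTWIST1, 15 members were lower and 5 higher, with a median of -0.14, where 17.8% and 22.7% of all genes were and the median was 0.01. The other genes between the first and the last member gave similar counts, with 22 of 56 lower and 3 higher in Control and 18 lower and 5 higher in sgTWIST1. Genes from the centromere to the first member had a median of -0.01 in Control and 0.12 in sgTWIST1. The 87 genes beyond the last member had a median of -0.13 in Control, with 29 lower and 14 higher, and of -0.06 in sgTWIST1, with 15 lower and 11 higher.

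Among members, 12 were lower in tumors in both genotypes, where 19.4% of all genes were lower in Control and 17.8% in sgTWIST1. The share of all genes lower in both is not given here, so nothing is read from this count. NQO1 fell from the cell values above to 7.56, 7.31, 10.3 and 9.35 CPM in Control tumors and to 7.96, 6.33, 5.83 and 10.2 in sgTWIST1 tumors. All tumors lay below all cultures, at a log2(FC) of tumors against cells of -1.35 ± 0.26 in Control (adjusted p = 0.00127) and -2.04 ± 0.27 in sgTWIST1 (adjusted p = 5.5e-05; edgeR), the largest change of a member in sgTWIST1. Of the other NRF2 targets named here, all from the list of partner genes, SLC7A11, GCLM, SRXN1 and TXNRD1 were also lower in tumors in each genotype. SLC7A11, the cystine transporter, was at -2.34 in Control and -2.78 in sgTWIST1, GCLM at -1.27 and -1.14, SRXN1 at -1.08 and -1.21 and TXNRD1 at -0.41 and -0.65. GCLC and HMOX1 did not pass. DOK4 fell in tumors, at a log2(FC) of -1.43 ± 0.21 in Control (adjusted p = 0.000168) and -1.08 ± 0.21 in sgTWIST1 (adjusted p = 0.00119; edgeR). FHOD1 was at -1.20 and -1.29, ARL2BP at -0.76 and -0.96, GOT2 at -0.78 and -0.47, and the other members lower in both were OGFOD1, COQ9, E2F4, ATP6V0D1, SLC7A6, NIP7 and COG4. NUP93, HERPUD1, CIAPIN1, NDRG4, CMTM3, PLA2G15 and SNTB2 passed as lower in Control and not in sgTWIST1, and CBFB, ACD and EDC4 in sgTWIST1 and not in Control, which does not show that the genotypes differed. Some of these calls were lost with a sample left out. In Control, HERPUD1 was at -0.23 without culture 2 (also lost without tumor 1 or 2), SNTB2 at -0.28 without culture 3, and SLC7A6 at -0.34 and ATP6V0D1 at -0.36 without culture 1. Of the 14 samples left out in turn, 5 ended the call of NUP93 and 6 that of CMTM3 in Control, and 11 ended that of CBFB, 11 that of COQ9, 6 that of EDC4 and 4 that of PDPR in sgTWIST1. SLC7A11 in sgTWIST1 was at -1.97 without sgTWIST1 culture 2. TXNRD1 in Control lost its call with 10 of the 14 left out, and SRXN1 without Control culture 3.

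NFAT5 and RSPRY1 rose in tumors of both genotypes. NFAT5 was at 79.7, 86.7 and 85.6 CPM in Control cells and at 67.0, 55.1 and 58.9 in sgTWIST1 cells. In tumors it was at 203.0, 140.8, 168.2 and 183.1 CPM in Control and 175.5, 228.5, 204.8 and 161.7 in sgTWIST1. All tumors lay above all cultures, at a log2(FC) of 1.05 ± 0.14 in Control (adjusted p = 9.77e-05) and 1.67 ± 0.15 in sgTWIST1 (adjusted p = 2.71e-06; edgeR). Of 3 NFAT5 targets, SLC6A6 was lower in tumors of both genotypes (-1.07 and -1.14), and SLC5A3 was at -0.08 in Control and rose by 1.09 in sgTWIST1. AKR1B1, the third, was at -0.16 and 0.15. RSPRY1 was at 69.6 to 78.4 CPM in Control cells, 39.0 to 40.6 in sgTWIST1 cells, 91.2 to 107.2 in Control tumors and 83.7 to 95.6 in sgTWIST1 tumors. It rose by 0.41 in Control and 1.14 in sgTWIST1. SMPD3 rose by 1.66 ± 0.23 in Control (adjusted p = 0.000119; edgeR), the largest change of a member there, and was at 0.39 in sgTWIST1, where it did not pass. It passed the expression filter through Control cells and Control tumors alone, so its values here are not independent of the filter. CPNE2 (0.64), CSNK2A2 (0.81) and PDPR (0.53) rose in sgTWIST1 and did not pass in Control, and no member passed in opposite directions.

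**Figure D5:**
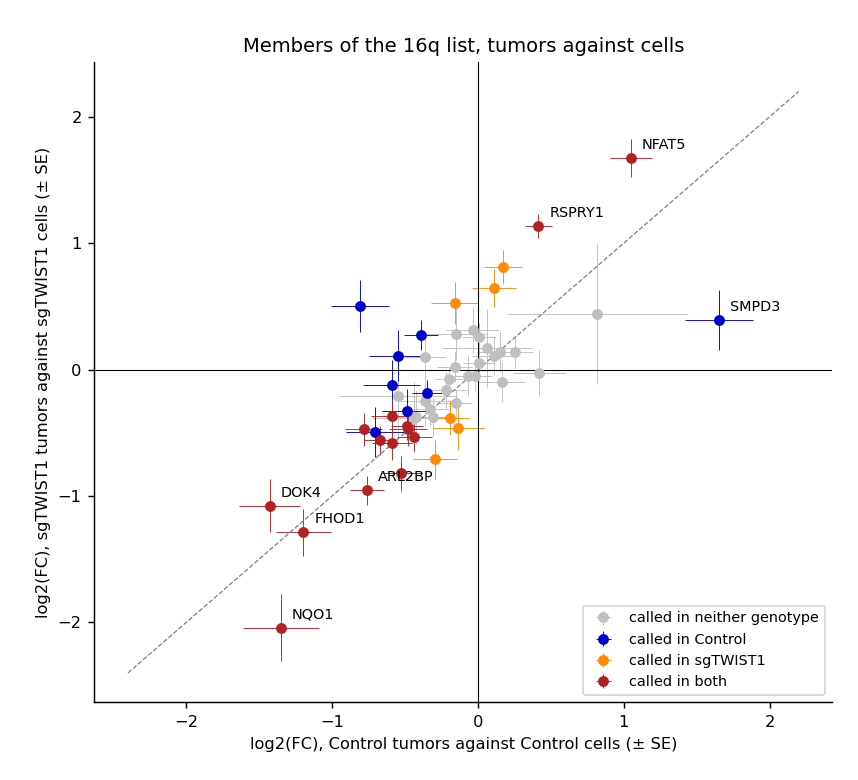
log2(FC) of tumors against cells in Control (x axis) and sgTWIST1 (y axis) for the 52 tested members, with SE bars and colors for the genotypes in which the member passed an adjusted p of 0.05; the dashed line marks equal change. NQO1, FHOD1 and DOK4 lie at the lower left, NFAT5 at the upper right, and SMPD3 to the right of the line.

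Whether the change in tumors differed between genotypes is built from the contrasts that chose the list, and is given as a description. In the interaction term of the fit, 1 member passed as more positive in Control and 4 as more negative, where 4.35% and 8.55% of all genes did. SMPD3 was the former, at 1.26, and PLA2G15 (-1.31), RSPRY1 (-0.72), NDRG4 (-0.66) and CSNK2A2 (-0.64) the latter. PLA2G15 passed the filter only through Control cells and sgTWIST1 tumors, the groups where it was highest. SMPD3 passed it only through Control cells and Control tumors, where it was highest as well. Neither value is independent of the filter.

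Genes that encode partners of the members' proteins but lie on other chromosomes lay around 0 as a whole, while some lists and single genes did not. Of 97 tested partner genes from 21 complexes and target groups, 11 were higher and 11 lower in Control cells, with a median log2(FC) of -0.07, against the 19.8% and 17.1% of all genes given above. In tumors 19 were higher and 13 lower, with a median of 0.06, where 24.0% and 23.0% of all genes were. In the CCR4-NOT deadenylase, CNOT2, CNOT7 and CNOT8 were higher in Control cells by 0.44, 0.48 and 0.64. None of 10 was lower, beside 0.93 for the member CNOT1. In tumors CNOT2, CNOT7 and RQCD1 passed as higher, at 0.67, 0.88 and 0.51, and CNOT8 was at 0.03. The median of the 10 was 0.15 in cells and 0.13 in tumors. In the BBSome the median of 5 tested partners was 0.73 in cells and 0.13 in tumors, beside 0.81 and 0.40 for the member BBS2. BBS4 passed as higher in both settings, at 0.77 and 0.40, and TTC8 in cells alone, at 1.10. In decapping, DCP1B passed as higher, at 1.56 and 1.12, while the median of 4 tested partners was 0.00 and -0.01. SLC7A11 passed as higher in both settings, while the median of the 7 NRF2 targets was -0.27 and -0.20. In dynein 1, DYNC1I1 was lower, at -1.36 in cells, beside 0.91 for DYNC1LI2. In tumors DYNC1I1 was at -0.87 and did not pass, and DYNC1I2 and DYNC1LI1 passed as lower, at -0.28 each. PSMB8, the catalytic partner of PSMB10 in the immunoproteasome, was lower in Control, at -4.01 in cells (-4.80 without Control culture 2) and -3.04 in tumors. Among 7 tested partners of E2F4, TFDP1 was lower, at -0.91 in cells and -0.44 in tumors. RBL1 and LIN52 were higher in tumors, at 0.58 each. The median of these partners was -0.15 in cells and 0.14 in tumors. In tumors against cells, 11 partners were higher and 17 lower in Control, where 18.3% and 19.4% of all genes were. In sgTWIST1 the counts were 14 and 21, where 22.7% and 17.8% of all genes were.

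Neighbouring genes can share reads. Of the 54 members, 18 overlap another tested gene in the annotation, and whether the counting used strand is not stated in the sources used here. Windows of 100 bases shared with an overlapping gene made up 68.4% of CHTF8 and 45.5% of NUDT21, and 12.5% of PDPR recurred in copies elsewhere, so these values are less certain.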

How the data were processed

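RNA of 14 samples (3 Control and 3 sgTWIST1 cultures, 4 Control and 4 sgTWIST1 ortho_1 tumors) was analysed from 19 deposited columns. The authors deposited RSEM expected counts per gene for human and for murine genes, and the submitters' notes name STAR 2.5.2b, RSEM 1.3.0, DESeq2 1.26.0 and the builds hg19 and mm10. Columns of 1 clone run in 2 batches were summed, and counts were rounded to whole numbers. Genes were placed with GENCODE (GRCh37), arms being split at the largest assembly gap, and 55538 of 57820 matched. Tested were protein-coding genes whose log2 RPKM (counts per kilobase of exon, scaled to the column total) exceeded 1 in any column, the threshold of the study. The study used RPKM from RSEM, so the genes kept differ. CHTF8 occurs in 2 rows, of which the annotated one was used.

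Tests used edgeR 4.0.16 (R 4.3.3; TMM, quasi-likelihood, Benjamini-Hochberg over all genes tested): cells alone, tumors alone, and all 4 groups for tumors against cells. CPM are scaled by TMM to the counts of the tested genes, and the RPKM reported are these per kilobase of exon. Sample deviations used log2(CPM + 0.5). Depth limits precision: totals ran from 21426499 to 49990985 counts a sample. On simulated counts with 200 changed genes the edgeR fits recovered 103 (cells), 137 (tumors), 138 (Control) and 123 (sgTWIST1), with 0 to 8 false calls.

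The members, lists and roles were chosen with earlier results of these data known. Named with every sample or group range are the 3 members highest and the 3 lowest in mean log2(FC), the most abundant of each role group, both metallothioneins and the member with the largest change in tumors of each genotype. NFAT5 and RSPRY1 were singled out after their values were seen. A gene of the partner list is not reported here by name, though the counts over that list include it. Named besides are the tested neighbours of the list, the negative genes within it and some, not all, of the called partner genes. Deviations of same-numbered Control and sgTWIST1 cultures correlated at 0.100 to 0.316 in all 3 pairs, above the -0.27 to 0.06 of cultures with different numbers. In tumors they correlated at -0.19 to 0.28 for the same number and at -0.34 to 0.44 for different numbers. The main fits did not use the numbers, and a fit with them as a replicate block is among the alternatives. Alternatives were other scalings, filters, gene types, DESeq2 1.42.0, a replicate block, other sets of samples in the fit, 1 batch alone and each replicate left out. Protein sequences were not used here.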

Additional observations from a re-analysis of the deposited data

Results flagged for a closer look

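FHOD1 in Control tumor 2 was at 20.9 CPM, and the other 3 Control tumors lay together between 16.1 and 16.9. It was the 1 sample that stood apart by Dixon's criterion among 34 groups of 4 tumors examined, and chance alone flags about 1 group in 20. In the interaction term of the fit over all genes, 5 members passed the threshold for a change from cells to tumors that is unequal in Control and sgTWIST1, 1 as more positive in Control and 4 as more negative, where 4.35% and 8.55% of all genes did. As Control minus sgTWIST1 on the log2 scale it was 1.26 for SMPD3, -1.31 for PLA2G15, -0.72 for RSPRY1, -0.66 for NDRG4 and -0.64 for CSNK2A2. These samples also chose the list, so the values are a description and no test of the members.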

How the results depend on the processing

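The direction of both medians held under every alternative run. The median log2(FC) of the members ranged from 0.63 to 0.72 in cells and from 0.49 to 0.59 in tumors with a replicate left out. Without a filter it was 0.56 in cells and 0.42 in tumors, and 21 members were called higher in Control tumors; the median of all genes in tumors was then -0.16, and more genes were tested. The cause of the lower values was not tested. With a replicate left out, 25 to 38 members were called higher in Control cells and 29 to 35 in Control tumors. For the counts of called members in this section, the shares of all genes under each alternative are not given. A change in these counts therefore cannot be told apart from a change over all genes. The call of tumors against cells stayed within 18 to 23 members in Control and 16 to 24 in sgTWIST1 with a replicate left out, and within 20 to 28 and 20 to 25 under the other alternatives. The interaction called 3 members with filterByExpr and 3 without a filter, and 3 to 8 with a replicate left out: 8 without Control cells replicate 1, and 3 without Control cells replicate 2 or without sgTWIST1 cells replicate 2. With the clone or xenograft number as a replicate block, the medians were 0.66 in cells and 0.57 in tumors, 35 and 33 members were called higher in Control, 22 (Control), 23 (sgTWIST1) and 4 (interaction) members were called in the other comparisons, and no count moved by over 1.5 times. Of 368 recalculations of the 16 calls of single members in tumors against cells, 364 kept the call; NDRG4 in Control lost it without Control cells replicate 2 or Control tumor 1, and RSPRY1 in Control lost it with filterByExpr and without a filter. None was reversed. Genes with few counts, MT1X among them, are limited by depth.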
